A study of Macaca mulatta with 6 samples.

Results

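Genes that make, break down and sense the inhibitory transmitter GABA were examined in RNA labelled as that of serotonin neurons, laser-captured in the dorsal raphe nucleus of female rhesus macaques. The genes were GAD1, GAD2, ABAT, GABRA2 and GABRA4. All probe sets whose annotation gives one of these symbols and no other were taken, which gave 10 of the 52766 probe sets that measure transcripts, for 5 of the 14132 genes named on the array. GAD1 had 3 probe sets, GAD2, ABAT and GABRA2 had 2 each, and GABRA4 had 1. The genes were chosen by earlier values of these same arrays, mainly the signals of GAD2, GABRA2 and GABRA4 with estrogen against placebo. Their values in that contrast are therefore a description and carry no test.

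One array was run per monkey, with 2 monkeys in each of 3 groups. Placebo animals, titled with Ovx for what is taken to be ovariectomy, served as controls for animals given estrogen and animals given estrogen with progesterone. The titles of the hormone-treated samples do not mention the ovaries, and the labels give no ages. Crystalline steroids were delivered from Silastic capsules under the skin for 1 month before the tissue was taken. The animals were separate, so the spread within a group is between monkeys.

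GABA is made from glutamate by 2 glutamate decarboxylases. GAD1 encodes the form found throughout the cell, and GAD2 the form concentrated at nerve terminals. ABAT encodes GABA transaminase, a mitochondrial enzyme of neurons and astrocytes that begins the breakdown of GABA. GABRA2 and GABRA4 encode alpha subunits of the GABA-A receptor, a chloride channel whose alpha subunit shapes sensitivity to GABA and to drugs. In the dorsal raphe nucleus, GABA neurons lie among serotonin neurons and inhibit them. In the RefSeq gene table of the macaque assembly T2T-MMU8v2.0, GABRA2 lies between the receptor gene GABRG1 and COX7B2, and GABRA4 between COX7B2 and GABRB1, so both alpha subunit genes belong to one receptor gene cluster.

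The 6 arrays were not equally sensitive. For each array a floor was set at percentile 95 of the 59 control probe sets without an expected target. Floors were 216 and 221 for placebo, 30.0 and 51.6 for estrogen, and 74.9 and 283 for estrogen+progesterone. Only 28.7% to 37.3% of probe sets exceeded the floor on placebo 1, placebo 2 and estrogen+progesterone 2, called low-signal arrays here, and 49.6% to 62.2% did so on the other 3, called high-signal. Array signal and treatment therefore cannot be told apart between placebo and estrogen. The 2 animals given both hormones fell into different classes, and their arrays correlated at r = 0.000477 across 26383 probe sets. The placebo pair correlated at 0.518 and the estrogen pair at 0.862. Estrogen+progesterone 1 correlated at 0.913 and 0.842 with the estrogen arrays, and estrogen+progesterone 2 at -0.050 and -0.041. With the placebo arrays the values were 0.473 and 0.517 for estrogen+progesterone 1 and 0.333 and 0.290 for estrogen+progesterone 2. Each mean with both hormones thus averages 2 unlike arrays. These are values across probe sets and not across replicates.

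Of the labelled serotonin neuron's markers, TPH2, which makes the serotonin precursor, exceeded the floor on 2 of 6 arrays, and the transcription factor genes FEV and GATA3 exceeded it on 6. Among the other named markers, GCH1 exceeded it on 6 arrays, SLC18A2 on 4, and LMX1B and HTR1A on 1 each. Summed over 7 named of 10 serotonin markers, placebo animals reached 1627 and 1737, estrogen animals 1552 and 928, and animals on both hormones 1403 and 2152. Of these 7, 3 and 4, 5 and 6, and 4 and 4 exceeded the floor in the same order. All sums given here include signals under the floor, and the floors differed between arrays. Summed signals of 8 named of 12 astrocyte markers were 17347 and 17015, 54487 and 65593, and 60994 and 3318 in the same order. For 6 named of 10 general neuronal markers they were 8661 and 14106, 28379 and 29298, and 27426 and 2389.7. Oligodendrocyte, microglial, endothelial and glutamate neuron markers, of which 4 of 10, 9 of 9, 5 of 5 and 2 of 3 were named, summed to 2529.7 to 52920.5, 2322 to 5038, 679 to 925 and 88.5 to 537 over the arrays. No named marker was at 0. In such captured tissue, fewer cells of a type and less RNA per cell cannot be told apart.

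The GABA enzymes and receptor subunits showed separate patterns over the 6 animals. GAD1 was high on 5 arrays and far below the floor on estrogen+progesterone 2. GAD2 did not reach the floor with placebo and exceeded it on the other 4 arrays. ABAT exceeded the floor everywhere and was highest on the 3 high-signal arrays. GABRA2 and GABRA4 did not reach the floor with placebo and exceeded it with estrogen. These statements hold for the probe set with the highest mean, called the lead probe set, and the other probe sets of a gene often differed from it.

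**Figure D1:**
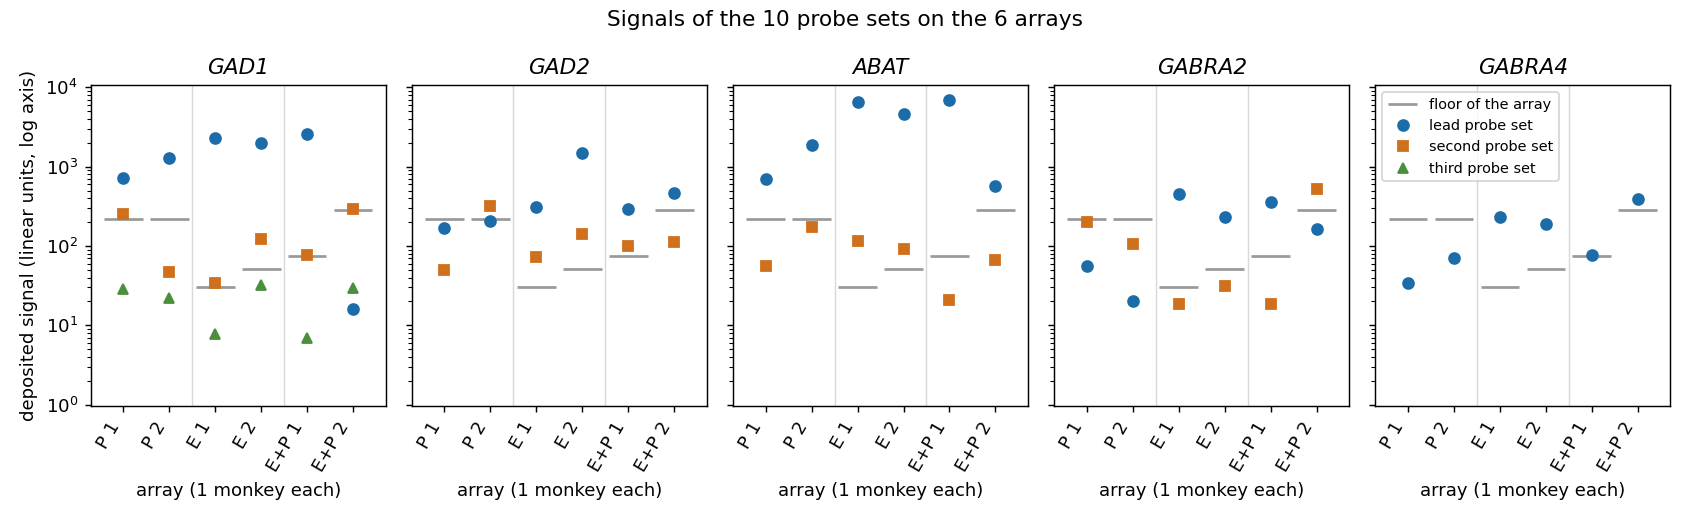
Deposited signal (linear units on a log axis) of each of the 10 probe sets on the 6 arrays, P for placebo, E for estrogen and E+P for estrogen with progesterone, 1 monkey each. Points are single arrays and grey bars are the array floors. The GAD1 lead probe set falls to 16.1 on estrogen+progesterone 2, and the lead probe sets of GABRA2 and GABRA4 lie under the placebo floors and over the estrogen floors.

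The lead probe set of GAD1, MmugDNA.40699.1.S1_at, read 728 and 1267 in the placebo animals, 2305 and 2003 in the estrogen animals, and 2561 and 16.1 in the animals on both hormones. The first 5 values were well above their floors, and the last was far below a floor of 283. Ranked within its own array, this probe set stood between the 96.0th and the 98.3rd percentile on 5 arrays and at the 3.92nd on estrogen+progesterone 2. On the normalized log2 scale the placebo group averaged 10.39 ± 0.55, the estrogen group 10.43 ± 0.022 and the group on both hormones 7.62 ± 4.25 (SD, n = 2 monkeys). In that order of levels, estrogen and placebo differed by less than the placebo spread, and the lowest group was split between its 2 animals.

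The raw signals of this GAD1 probe set did not overlap between placebo and estrogen, but the normalized values did. Estrogen minus placebo on the log2 scale was 0.035 ± 1.58 (SE) after quantile normalization, 1.15 without it and 2.39 with median-centering, so its size varied with the scaling of the arrays. It turned to -0.36 without placebo 1 and to -5.97 with low or high array signal as a covariate. Placebo and estrogen each lie wholly in 1 signal class, so that term is estimated only from the 2 animals given both hormones. For GAD1 it thus rests on the single reading of 16.1 on estrogen+progesterone 2. Other values with this covariate rest on the same 2 arrays. The second GAD1 probe set, MmugDNA.20165.1.S1_at, read 249 and 46.9 in the placebo animals, 34.6 and 122 in the estrogen animals, and 77.9 and 289 in those on both hormones. It exceeded the floor on 5 arrays, but narrowly on placebo 1 (floor 216), estrogen 1 (30.0), estrogen+progesterone 1 (74.9) and estrogen+progesterone 2 (283). The lead probe set was under the floor on estrogen+progesterone 2, and the bare pass of the second there is weak evidence of GAD1 signal. The third stayed under the floor on all 6 arrays, at 6.86 to 32.4, and places only a bound on the gene's level.

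For GAD2, the lead probe set MmugDNA.34507.1.S1_at read 168 and 208 in the placebo animals, 314 and 1466 in the estrogen animals, and 292 and 469.9 in those on both hormones. Both placebo values lay just under their floors, and the 4 hormone values lay above theirs. The within-array percentiles were 51.7 and 61.0 in the placebo animals, 81.6 and 96.2 in the estrogen animals, and 81.1 and 91.3 in those on both hormones. The group means were 7.15 ± 0.26, 9.24 ± 1.15 and 8.82 ± 0.61 on the normalized log2 scale (SD, n = 2 monkeys). The 2 hormone groups, the upper neighbours in that order, overlapped.

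Estrogen minus placebo for the GAD2 lead probe set was 2.09 ± 0.90 (SE), from 1.28 without estrogen 2 to 2.90 without estrogen 1. Placebo gives only a bound, so the brighter mean was set against the higher of floor and signal on each placebo array, with nothing allowed for the spread between animals. Without quantile normalization the lead probe set's mean was then at least 2.99-fold higher with estrogen and at least 1.65-fold higher with both hormones. With it the ratios were 3.53 and 2.65. Such ratios thus depend on the scaling of the arrays, and the lower one is taken as the bound. They bound the means of this probe set and not each animal or the gene. Estrogen 1 at 314 and estrogen+progesterone 1 at 292 lay much nearer the placebo floors of 216 and 221. The second GAD2 probe set, MmugDNA.12677.1.S1_at, read 49.7 and 318, then 71.7 and 142, then 99.4 and 113 for placebo, estrogen and both hormones. It was above the floor on placebo 2 and below it on estrogen+progesterone 2, the reverse of the lead probe set on both arrays.

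For ABAT, the lead probe set MmugDNA.21059.1.S1_at read 704 and 1877 in the placebo animals, 6467 and 4569 in the estrogen animals, and 7018 and 576 in those on both hormones, over the floor in each. The 3 high-signal arrays lay above the 3 low-signal ones whatever the treatment. The group means were 10.62 ± 0.96, 11.66 ± 0.23 and 10.89 ± 1.36 on the normalized log2 scale (SD, n = 2 monkeys), and neighbouring groups in that order differed by no more than about the larger SD. Estrogen minus placebo was 1.04 ± 0.96 (SE), and -0.89 once array signal entered the model as a covariate, a term estimated from the pair given both hormones. The summed astrocyte and neuronal markers were also highest on the 3 high-signal arrays, and their part in the ABAT values was not tested. The second ABAT probe set, MmugDNA.35034.1.S1_at, gave 56.2 and 172, 114 and 90.4, and 20.9 and 66.4 in the same order, and exceeded the floor in the estrogen animals alone.

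For GABRA2, the lead probe set MmuSTS.4812.1.S1_at read 55.6 and 20.2 in the placebo animals, 448 and 234 in the estrogen animals, and 354 and 165 in those on both hormones. All 3 high-signal arrays exceeded their floors and none of the 3 low-signal arrays did. Its group means were 5.27 ± 0.61, 8.42 ± 0.45 and 7.72 ± 1.22 on the normalized log2 scale (SD, n = 2 monkeys). Estrogen minus placebo was 3.15 ± 0.92 (SE), and 1.43 with array signal as a covariate. Against the placebo floors the estrogen mean of this probe set was at least 1.45-fold higher without quantile normalization, where the normalized ratio was 2.00.

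The other GABRA2 probe set, MmugDNA.41722.1.S1_at, read 200.4 and 105 in the placebo animals, 18.5 and 30.9 in the estrogen animals, and 18.4 and 516 in those on both hormones. It passed the floor on estrogen+progesterone 2 alone, where the lead probe set did not, and estrogen minus placebo was -0.92 ± 1.21 (SE). Both placebo and both estrogen values were under their floors, so this probe set gives no direction between those groups.

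For GABRA4, the single probe set MmugDNA.20347.1.S1_at read 34.0 and 70.4 in the placebo animals, 231 and 192 in the estrogen animals, and 76.9 and 396 in those on both hormones. It stayed under the floor with placebo and exceeded it on the other 4 arrays, though on estrogen+progesterone 1 the signal of 76.9 barely passed a floor of 74.9. Its highest value was on the low-signal array estrogen+progesterone 2. The group means were 5.59 ± 0.52, 8.05 ± 0.19 and 7.84 ± 1.26 on the normalized log2 scale (SD, n = 2 monkeys), so the 2 hormone groups did not differ beyond their spread. Estrogen minus placebo was 2.46 ± 0.91 (SE), and 4.25 with array signal as a covariate. No fold is given over the placebo floors, since the ratio to them was 1.55 after quantile normalization but 0.967 without it.

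Over all 10 probe sets, normalized values did not overlap between estrogen and placebo for 6 that were higher and 1 that was lower with estrogen. Among all 52766 probe sets the shares were 23.8% higher and 24.9% lower, and nothing is read from the members' counts because this contrast chose the genes. The counts also include the third probe set of GAD1 and the second of GABRA2, under the floor in all placebo and estrogen animals. They include the second of ABAT too, whose ratio to the placebo floors was 0.503 without quantile normalization. In limma, 0 of 26383 probe sets (0%) had an adjusted p under 0.05 here, and 2065 (7.83%) had an unadjusted p under 0.05. With array weights in the fit, 434 probe sets were called.

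**Figure D2:**
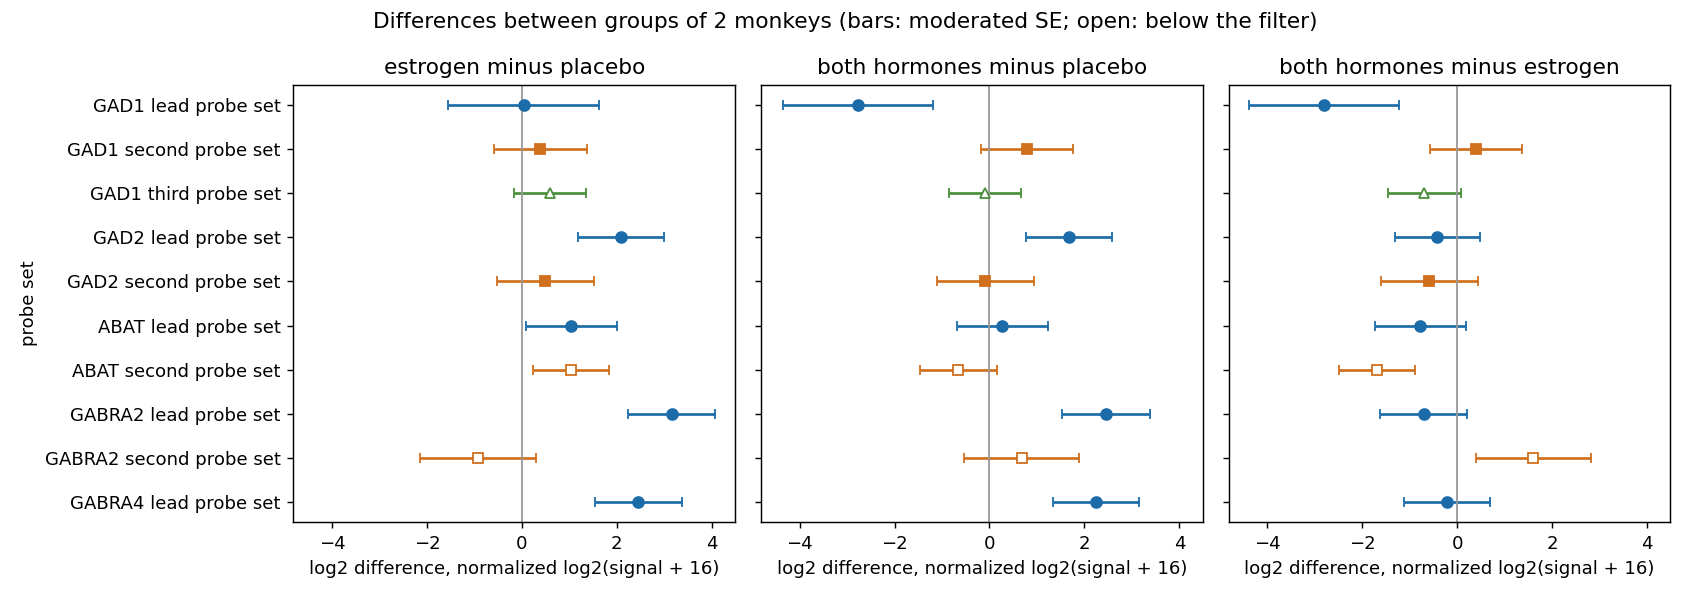
Log2 differences (normalized log2(signal + 16)) of the 10 probe sets in the 3 pairwise comparisons, each between groups of 2 monkeys. Points are limma estimates, bars are moderated standard errors and open symbols are probe sets below the filter on mean signal. The GABRA2 probe sets lie on opposite sides of 0 in the first panel (3.15 and -0.92), and the GAD1 lead probe set is lowest in the other panels (-2.77 and -2.81).

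Both hormones were next compared with placebo, which asks what the combined treatment did to these genes. On the normalized scale, the lead probe sets of GABRA2, GABRA4 and GAD2 had higher means with both hormones. The ABAT mean was little different, and GAD1 was split. The log2 difference was 2.45 ± 0.92 (SE, n = 2 monkeys per group) for GABRA2, 2.25 ± 0.91 for GABRA4 and 1.68 ± 0.90 for GAD2. The ratio of GABRA4 to the placebo floors was 1.34 after quantile normalization and 0.835 without it, so no bound is given. GABRA2 has none either, since estrogen+progesterone 2 was below its floor. For these 2 subunits the signals against the floors therefore give no firm direction. ABAT stood at 0.27 ± 0.96 and GAD1 at -2.77 ± 1.58. None passed, with adjusted p = 0.992 from limma for GAD1, GAD2, GABRA2 and GABRA4 and 0.994 for ABAT. These values share the placebo arrays with the contrast that chose the genes, so the low placebo signals count in both.

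All 5 values moved with the animal of the combined treatment that was left out. Without estrogen+progesterone 2, both hormones minus placebo was 0.23 for GAD1, 1.23 for ABAT, 1.25 for GAD2, 3.32 for GABRA2 and 1.35 for GABRA4. Without estrogen+progesterone 1 it was -5.78 for GAD1, -0.70 for ABAT, 2.11 for GAD2, 1.59 for GABRA2 and 3.14 for GABRA4. ABAT was also at -0.41 without placebo 1. GAD1 and ABAT thus changed sign with the array left out, and GAD2, GABRA2 and GABRA4 did not, which follows for the last 3 from groups that do not overlap. Normalized values did not overlap for 3 of the 10 probe sets, all higher with both hormones, against 13.9% higher and 14.2% lower among all probe sets. limma called 0 of 26383 probe sets (0%), while 870 (3.3%) had an unadjusted p under 0.05, those of GABRA2 and GABRA4 among them. The second probe sets gave 0.79 ± 0.98 (SE) for GAD1, -0.091 ± 1.02 for GAD2 and -0.66 for ABAT, the last from signals under the floor on all 4 arrays. For GABRA2 the second probe set gave 0.68 ± 1.21, and of these 4 arrays it passed the floor on estrogen+progesterone 2 alone.

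Both hormones were then compared with estrogen, which asks what progesterone added. All 5 lead probe sets had lower means with both hormones, as did most genes (34.0% of 9781 were above 0, median -0.44), by amounts smaller than their standard errors for 4 of them. The log2 difference was -2.81 ± 1.58 (SE, n = 2 monkeys per group) for GAD1, -0.77 ± 0.96 for ABAT, -0.70 ± 0.92 for GABRA2, -0.42 ± 0.90 for GAD2 and -0.21 ± 0.91 for GABRA4. Adjusted p from limma was 0.799, 0.813, 0.818, 0.892 and 0.949, and this fit also shares the estrogen arrays with the contrast that chose the genes. limma called 0 of 26383 probe sets (0%), with 464 (1.76%) at an unadjusted p under 0.05, none of them among the 7 tested probe sets of these genes.

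The GAD1 difference rested on 1 animal. Without estrogen+progesterone 2 it was 0.19, and ABAT stood at 0.19 and GABRA2 at 0.16, while GAD2 stood at -0.85 and GABRA4 at -1.10. Without estrogen+progesterone 1 it was -5.81 for GAD1, with adjusted p = 0.0323 from limma, in a fit that called 4200 probe sets and took estrogen+progesterone 2 as the only animal of its group. That fit also moved GAD2 to 0.014 and GABRA4 to 0.69, and leaving out estrogen 2 moved GAD2 to 0.39. Normalized values did not overlap for 2 of the 10 probe sets, the second of ABAT and the third of GAD1, both lower with both hormones. The shares among all probe sets were 19.1% higher and 16% lower. The third of GAD1 was under the floor on every array and its deposited signals overlapped, so it gives no direction. The second of ABAT was under the floor in both animals on both hormones. The ratio of its estrogen mean to those floors was 1.03 after quantile normalization and 0.715 without it, so no bound is given.

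**Figure D3:**
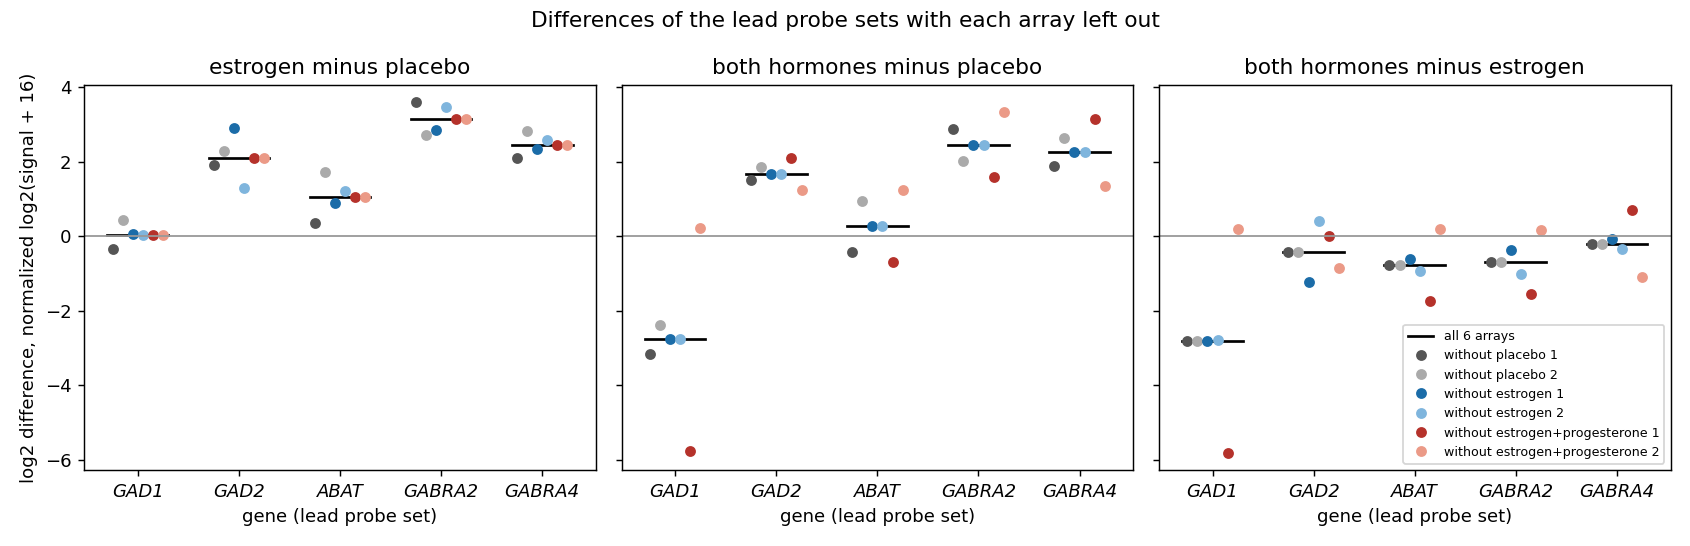
Log2 difference (normalized log2(signal + 16)) of the lead probe set of each gene in the 3 comparisons, with all 6 arrays (black line) and with each array left out in turn (points). GAD1 moves from -2.77 and -2.81 to 0.23 and 0.19 without estrogen+progesterone 2, and GAD2, GABRA2 and GABRA4 stay above 0 in the first and second panels.

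The patterns of the 5 lead probe sets over the 6 arrays were set against each other and against 9776 other genes by the root mean square difference of mean-centred normalized log2 values, where 0 is an identical profile. GAD2 and GABRA4 were the most alike of the 10 pairs of members, at 0.66, and GAD1 and GABRA4 the least, at 3.05. The median of the other genes was at 1.37 from GAD2 and at 1.55 from GABRA4. GAD2, GABRA2 and GABRA4 were chosen by their signals with estrogen against placebo on these arrays. Their likeness to each other is therefore built in and is only described. The 2 decarboxylases differed by 2.73, and the 2 receptor subunits by 1.16. The genes most like GAD1 were UCHL5 (0.19), USP48 (0.26) and CNRIP1 (0.27), where the median gene was at 2.04. Like GAD1, each of the 3 was lowest on estrogen+progesterone 2, at signals of 11.0, 34.4 and 55.2, and no lower than 849, 785 and 935 on the other 5 arrays.

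The genes most like GAD2 were LOC696439 (0.23), UQCRC2 (0.28) and PSMC3 (0.32). Those most like ABAT were MRPL50 (0.07), ORMDL1 (0.10) and PRTFDC1 (0.12). GABRA2 was nearest to GSK3B (0.15), KLHL18 (0.25) and VAMP5 (0.30), and GABRA4 to PMS2 (0.30), NOL10 (0.36) and THUMPD2 (0.39). With another offset or scaling, 7 to 11 of these 15 names were found again.

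Other genes of the pathway were taken from a list of 38 without the 5 members, of which 20 were named on the array and 12 entered the test. Estrogen minus placebo was above 0 for 9 of the 12 (median log2 difference 0.60), against 60.6% of 9781 genes (median 0.28). Both hormones minus placebo was above 0 for 6 of 12 (median -0.056, or 0.31 with median-centering), against 46.2% of all genes (median -0.10). Both hormones minus estrogen was above 0 for 3 of 12 (median -0.79), against 34.0% of all genes (median -0.44). limma called 0 of the 12 in each direction and comparison. At an unadjusted p under 0.05 there were 0, 1 and 1 of them, ALDH5A1 in the second comparison and GLUD1 in the third. With array signal as a covariate the medians were -0.93, -1.02 and 0.083.

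**Figure D4:**
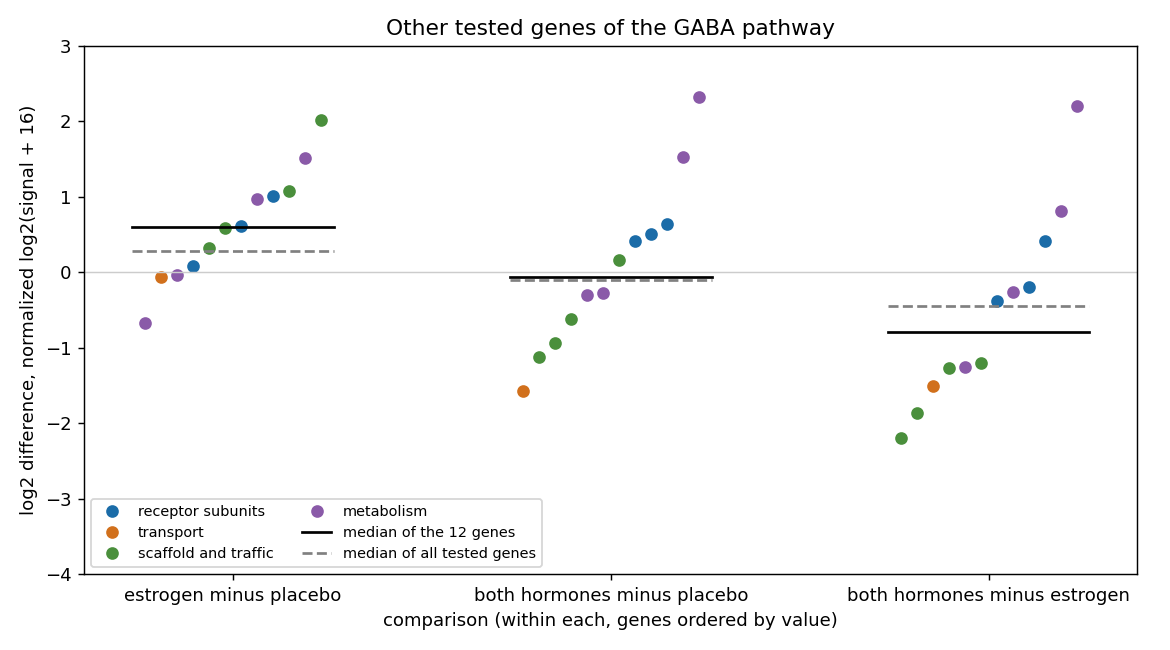
Log2 differences (normalized log2(signal + 16)) of the 12 other tested genes of the GABA pathway in the 3 comparisons, coloured by role and ordered by value within each. Black lines are their medians (0.60, -0.056 and -0.79) and dashed lines the medians of all 9781 tested genes (0.28, -0.10 and -0.44).

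Among the other receptor subunits, 9 of 17 were named on the array and 3 were tested. GABRB1, a beta subunit and the neighbour of GABRA4, read 625 and 311 in the placebo animals, 2023 and 1119 in the estrogen animals, and 1428.5 and 472 in those on both hormones. It exceeded the floor on all 6 arrays and was highest on the 3 high-signal ones. Its 2 other probe sets ran from 7.78 to 167 and from 176 to 514. GABRE, the epsilon subunit, gave 285 and 260.2, 154 and 244, and 238 and 383 in the same order, above the floor throughout. GABBR1 and GABBR2, which encode the GABA-B receptor, had no named probe set here.

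Of the GABA transporters, SLC6A12 read 262 and 329.7 in the placebo animals, 169.6 and 250.4 in the estrogen animals, and 215 and 28.8 in those on both hormones. It was under the floor on estrogen+progesterone 2 alone. SLC6A11, an astrocyte transporter gene, read 88.4 and 15.4, 56.4 and 136, and 116 and 158, and exceeded the floor on the 3 high-signal arrays alone. SLC32A1, which loads GABA into vesicles, had no named probe set here.

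GABARAP and GABARAPL2 encode small proteins of receptor traffic and autophagy. GABARAPL2 read 1462 and 3895 in the placebo animals, 7569 and 5107 in the estrogen animals, and 9667 and 416 in those on both hormones. GABARAP gave 892 and 491, 2344 and 4005, and 2028 and 188. Both were highest on the 3 high-signal arrays and lowest on estrogen+progesterone 2. All 4 tested genes of scaffold and traffic were above 0 for estrogen minus placebo (median 0.83), where 60.6% of all genes were. All 4 were below 0 for both hormones minus estrogen (median -1.56), where 34.0% of all genes were above 0. Without estrogen+progesterone 2, 2 of the 4 were above 0 and the median was 0.041.

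GLUL, the glutamine synthetase of astrocytes, read 4848 and 7504 in the placebo animals, 14685 and 14035 in the estrogen animals, and 18073 and 847 in those on both hormones. Like the summed astrocyte markers, it was lowest on estrogen+progesterone 2 and highest on the 3 high-signal arrays. ALDH5A1 encodes succinate semialdehyde dehydrogenase, the step after ABAT. It read 102 and 40.6 in the placebo animals, 85.9 and 108 in the estrogen animals, and 190.3 and 353 in those on both hormones, under the floor with placebo and over it in the rest. Both hormones minus placebo was 2.32 ± 0.83 (SE), with adjusted p = 0.992 from limma, and 2.10 without estrogen+progesterone 2. GLUD1, a glutamate dehydrogenase, read 164 and 158 in the placebo animals, 39.5 and 27.5 in the estrogen animals, and 108 and 514 in those on both hormones. It was under the floor in both placebo animals and on estrogen 2. Both hormones minus estrogen was 2.20 ± 0.96 (SE), with adjusted p = 0.799 from limma. It was 1.11 without estrogen+progesterone 2 and 3.30 without estrogen+progesterone 1, each time with 1 animal left on both hormones. GLUD1 was also picked after its values were seen.

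Markers of GABA neurons other than GAD1 and GAD2 were also measured. Of 11 on the list, 5 were named, and their summed signal was 1059 and 1577 in the placebo animals, 2141 and 2656 in the estrogen animals, and 1226 and 858 in those on both hormones. Of these 5, 2 and 3, 4 and 4, and 4 and 0 exceeded the floor in the same order. PVALB, a calcium-binding protein of many GABA neurons, gave 210.0 and 551, 848 and 2170.1, and 531 and 54.1 in that order. It was below the floor on placebo 1 and estrogen+progesterone 2 and above it on the other 4 arrays. NPY gave 237 and 496, 991 and 233, and 348 and 35.1, and GATA2 gave 532 and 259, 222 and 135, and 245 and 223, each above the floor on 5 arrays. The deposited GATA2 signals were thus lower in both estrogen animals than in both placebo animals. The floors were lower too, at 30.0 and 51.6 against 216 and 221, so these signals give no direction for GATA2. LHX6 was above the floor on 3 arrays and DLX1 on 0. The summed signal was highest with estrogen, mostly through PVALB and, on estrogen 1 alone, NPY. On estrogen 2 NPY was below both placebo values. The part of this sum in the GAD2, GABRA2 and GABRA4 values was not tested.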

How the data were processed

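Biotin-labelled RNA of laser-captured neurons was hybridized to 1 array per monkey (6 in all), per the labels' protocols. The deposited values are linear intensity values scaled per array, since each array's mean after trimming 2% at each end was 200. How probes were summarized into a signal is not given in the sources used here. Probe sets were named from the platform annotation, with symbols updated through the RefSeq gene table. No build is named for that annotation, so no position is given.

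An offset of 16 was added before log2 and quantile normalization, so differences understate changes of low signals. Normalization shifted the tested probe sets' median difference from -0.14 to 0.17 (estrogen minus placebo), -0.17 to -0.03 (both hormones minus placebo) and 0.06 to -0.22 (both hormones minus estrogen). The 99 control probe sets were left out, and the upper 50% of the rest by mean were tested, 7 of the 10 members included. The third probe set of GAD1 and the second of ABAT and GABRA2 have estimates from a fit without that filter. All 3 group means were fitted in one model with limma 3.58.1 (R 4.3.3, 3 residual degrees of freedom, two-sided, Benjamini-Hochberg over 26383 probe sets, threshold 0.05), tested on simulated data. With 2 against 2 animals an exact permutation test cannot go below p = 0.333, so none was used. The number of arrays limits the precision.

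The members, lists, settings and signal classes were chosen with earlier results of these data known. An array was classed as low-signal where fewer probe sets exceeded its floor than on average over the 6. Named genes were every probe set of the 5 members, the 3 genes most like each lead probe set, and in each pathway role up to 2 genes above the floor on the most arrays. GLUD1 and the markers given singly were picked after their values were seen. Alternatives were other offsets (1 or 64), scalings and filters (none or the 75th percentile), each array left out, a replicate block, a trended prior, array weights, fits of 2 groups alone, the signal class and other probe sets of a gene. Ratios to the floor without quantile normalization, and the pathway roles without estrogen+progesterone 2, were added after seeing the data.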

Additional observations from a re-analysis of the deposited data

How the results depend on the processing

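The 2 animals a group and the unequal floors limit what these arrays show, and probe sets under the floor give bounds only. The cause of the changes below was not tested. Where an array was left out, its group rested on 1 animal, assumed to vary like the others. Filters, the trended prior, array weights, the block and fits of 2 groups alone leave a difference of group means as it is. Of the 54 member values per comparison that moved, 4 changed sign for estrogen minus placebo. With both hormones, 8 did so against placebo and 12 against estrogen. No offset or scaling changed the sign of a lead probe set. GABRA2 and GABRA4 were under the filter at the 75th percentile and have no value there. Leaving out the low-signal array of the combined treatment is the fit without estrogen+progesterone 2. The signal class as a term repeats the value without estrogen+progesterone 1 for both hormones minus placebo, and without estrogen+progesterone 2 for both hormones minus estrogen, so it is no separate evidence there.

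For estrogen minus placebo, array weights gave 434 called probe sets (288 higher), and GABRA2 at 3.15 passed the threshold, which is no test because this contrast chose the gene. Leaving out arrays gave -0.36 to 0.43 for GAD1. Adding the signal class as a term, estimated only from the 2 animals given both hormones, gave -5.97 for GAD1 and -0.89 for ABAT. The second GABRA2 probe set gave -0.92. The pathway median was 1.91 with median-centering, 0.98 with the stricter filter and -0.93 with the signal class. For both hormones minus placebo, leaving out arrays gave -5.78 to 0.23 for GAD1, -0.70 to 1.23 for ABAT and -1.02 to 0.52 for the pathway median. That median was 0.31 with median-centering, -0.27 with the stricter filter and -1.02 with the signal class, which put ABAT at -0.70. Second probe sets gave 0.79 for GAD1, -0.091 for GAD2 and -0.66 for ABAT, and the mean of both ABAT probe sets gave -0.20.

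For both hormones minus estrogen, leaving out arrays gave 0 to 4200 called probe sets (the 4200 without estrogen+progesterone 1), -5.81 to 0.19 for GAD1, -1.23 to 0.39 for GAD2, -1.74 to 0.19 for ABAT, -1.56 to 0.16 for GABRA2, -1.10 to 0.69 for GABRA4 and -1.52 to 0.083 for the pathway median. With the signal class GAD1 stood at 0.19, ABAT at 0.19, GABRA2 at 0.16 and the pathway median at 0.083. That median was -0.97 without quantile normalization, -1.77 with median-centering and -1.25 with the stricter filter. Second probe sets gave 0.40 for GAD1 and 1.61 for GABRA2, and the mean of both GABRA2 probe sets gave 0.45.

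Replicate numbers were shared between groups, and whether they paired the animals or arrays is not known. Deviations of same-numbered arrays correlated at -0.06 to 0.08 across probe sets. With so few arrays per group these values cannot decide on pairing. With the replicate number as a block, limma called 0 probe sets in each comparison (2072, 808 and 765 at an unadjusted p under 0.05), and no call changed.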
